A study of Danio rerio with 47 samples.

Results

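The genes amh, gsdf, igf3, dmrt1, sox9a and ar were taken by name from the table of array values of a zebrafish study, 1 row for each gene and 6 rows of 31475 in all. They fall into 3 roles. Secreted factors of the gonad are amh, gsdf and igf3, transcription factors of testis support cells are dmrt1 and sox9a, and the receptor for androgens is ar.

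In zebrafish the gonad starts as a bipotential organ in which somatic cells surround the germ cells, and juvenile gonads can pass through an ovary-like phase before a testis forms. Germ cells are needed for an ovary to form and to last, and zebrafish without germ cells develop as males. In the testis, Sertoli cells support the germ cells and Leydig cells make androgens. These androgens act on cells that carry the androgen receptor, which also lie outside the gonad, for example in muscle.

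Gene expression was measured in developing trunk regions with 1-colour NimbleGen arrays. The morphants had been given a morpholino, an antisense oligonucleotide, against dnd as 1-cell embryos. The study's title concerns how early germ cell loss bears on testis formation, which is the question behind the comparison. The Dnd protein binds RNA and is required for primordial germ cells to survive and migrate. Morphant embryos were screened at 24 hours post fertilization, and those used here were labelled as having a low number of primordial germ cells, between 1 and 9. Wild-type fish carry the label of a high number, and the labels do not say whether they received a control injection. All fish were zebrafish kept at 28 °C until sampling. At 14 days post fertilization (dpf) 9 arrays held dnd morphants and 14 held wild types, and at 22 dpf the numbers were 10 and 14. The labels call the arrays biological replicates, and they do not say whether an array holds 1 fish or a pool. The labels count 10 morphant replicates at 14 dpf, of which 9 were analysed here.

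Values are log2 intensities, so a difference of 1 is a factor of 2. Over the whole table, the 10th percentile of an array lay between 4.74 and 4.81, and the median between 7.26 and 7.57 at 14 dpf and between 7.58 and 7.70 at 22 dpf. Because the ages may have been normalized separately, levels at 14 and 22 dpf were set side by side without a test. Of the germ cell marker ddx4 (vasa), morphants had 7.44 ± 1.46 and wild types 10.28 ± 1.29 at 14 dpf. There 1 wild-type array, number 20, was at 6.60, below the morphant median of 7.10, so that 7 of 9 morphant arrays lay within the wild-type range. Morphant array 3 had the highest ddx4 of its group at 10.92. At 22 dpf ddx4 averaged 7.35 ± 1.93 in morphants and 11.54 ± 0.90 in wild types (SD), and 2 morphant arrays, numbers 1 and 2, lay within the wild-type range at 10.77 and 10.86. Of the trunk tissues, 6 skeletal muscle markers had group means between 10.84 and 15.39, the skin keratins krt4 and krt5 between 14.56 and 15.18, and 4 kidney markers between 5.37 and 8.42. Of 24 markers of trunk cell types, 1 was called, the kidney transporter slc12a3, higher in morphants at 14 dpf (0.83, adjusted p = 0.0286 by limma). The pancreatic enzyme gene cpa5 differed by 1.56 and 1.97 at 14 and 22 dpf without passing (adjusted p = 0.267 and 0.138), and its part in the results was not tested. At 22 dpf 5 pairs of arrays resembled each other far more than other arrays of their group, with correlations of 0.70 to 0.89 between their deviations from the group mean, and morphant arrays 1 and 2 were one of these pairs. All arrays were kept as separate samples, so p-values at 22 dpf may be too small if a pair shares fish or RNA. At 14 dpf the closest pair, morphant arrays 5 and 13, had a correlation of 0.64, and the same limit applies to p-values there.

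None of the 6 genes was higher in morphants at either age by limma's test, in which a row was called when its p, adjusted by Benjamini and Hochberg's method across the table, was below 0.05. Lower in morphants were 2 of 6 at 14 dpf, ar and dmrt1, and 3 of 6 at 22 dpf, gsdf, igf3 and dmrt1. Of all rows of the arrays, 1.33% were called lower and 1.15% higher at 14 dpf, and 2.89% lower and 0.591% higher at 22 dpf. With the near-duplicate pairs averaged, the rows called at 22 dpf were 631 lower and 38 higher, in place of 911 lower and 186 higher, and of the 6 genes 1, gsdf, was called lower. At 14 dpf the age fitted alone called 138 rows lower and 57 higher, in place of 418 and 362, and of the 6 genes ar but not dmrt1. Centring each array on its median moved the share of 14 dpf calls that were higher in morphants to 60.0%, against 46.4% as deposited. Before adjustment 3 of 6 had a p below 0.05 at each age, all of them lower in morphants, where the share of all rows in either direction was 16.7% at 14 dpf and 13.9% at 22 dpf. The remaining genes, amh and sox9a, were not called. The trunk holds the gonad among many tissues, and in such bulk samples fewer cells of a type and less RNA per cell cannot be told apart.

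**Figure D1:**
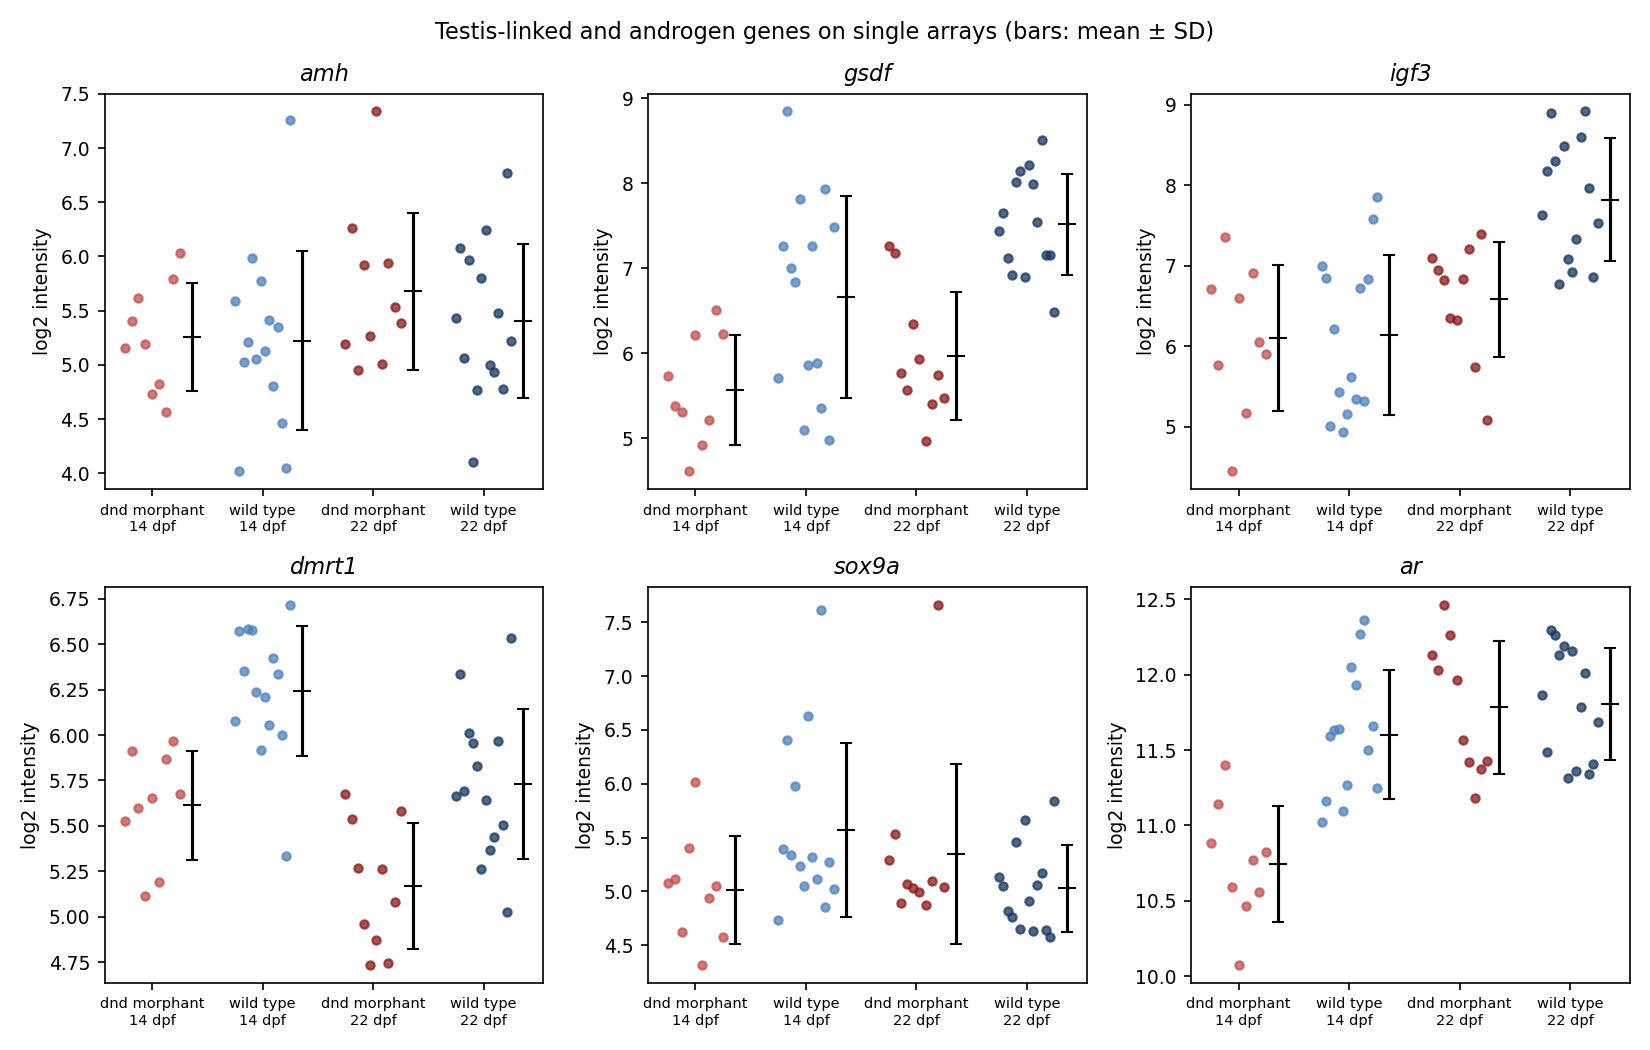
Log2 intensity of each of the 6 genes on every array, with dnd morphants left of wild types at each age along the horizontal axis; each point is 1 array and the bar beside it is the mean ± SD. The 22 dpf morphant points of gsdf sit below most wild-type points, the 14 dpf morphant points of ar lie between 10.08 and 11.40 against 11.02 to 12.36 in wild types, and the amh groups overlap throughout.

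Gonadal soma derived factor, gsdf, is a fish member of the TGF-β family secreted by the somatic cells that lie against germ cells in both testis and ovary. At 22 dpf gsdf lay between 4.96 and 7.26 with a median of 5.76 on the 10 morphant arrays, against 6.48 to 8.50 with a median of 7.49 on the 14 wild-type arrays. In all, 8 morphant arrays were below every wild-type array, and 8 wild-type arrays were above every morphant array. The group means were 5.96 ± 0.75 in morphants and 7.52 ± 0.59 in wild types (SD). The difference of -1.55 ± 0.35 (SE, 95% interval -2.25 to -0.85), a 2.93-fold lower intensity, passed limma's test with an adjusted p of 0.00284. Of these values, 8 of 10 in morphants and 1 of 14 in wild types lay within 2 log2 units of the array's 10th percentile. gsdf was below the wild-type median on all 10 morphant arrays, and a permutation test over arrays gave an unadjusted p of 6e-05. That test counted the arrays of near-duplicate pairs as separate samples, so its p may be too small.

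The gsdf values that came closest to wild type at 22 dpf were those of morphant arrays 1 and 2, at 7.26 and 7.18, the near-duplicate pair whose ddx4 lay in the wild-type range. The next morphant array, number 13, had 6.34. At 14 dpf, morphant array 3, with ddx4 at 10.92, had gsdf at 5.30, below the morphant median of 5.38. With that pair and the 4 others averaged, gsdf was still called, and it was called under each of the other settings and without each array in turn (-1.70 to -1.44).

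At 14 dpf gsdf lay between 4.61 and 6.50 with a median of 5.38 in morphants, and between 4.98 and 8.84 with a median of 6.92 in wild types. Wild-type arrays spread widely: 6 of them lay within the morphant range and 8 above it. The difference of -1.10 ± 0.36 did not pass limma's test (adjusted p = 0.0838, unadjusted p = 0.00352). All 9 morphant arrays were below the wild-type median, and the exact permutation test gave an unadjusted p of 0.0202. The difference passed limma's test without wild-type array 12 (-1.22, adjusted p = 0.0415) or 22 (-1.23, adjusted p = 0.0448), which have the lowest wild-type values. The groups in order of their mean were morphant at 14 dpf, morphant at 22 dpf (5.57 and 5.96), wild type at 14 dpf and wild type at 22 dpf (6.67 and 7.52), and each gap between neighbours was smaller than the larger SD of the 2 groups.

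The insulin-like growth factor igf3 is found in fish and is made in the gonad, where in zebrafish testis it stimulates spermatogonia to divide and differentiate. At 14 dpf igf3 did not separate the groups, with a range of 4.45 to 7.36 and a median of 6.05 in morphants, and a range of 4.94 to 7.86 and a median of 5.92 in wild types. Means were 6.10 ± 0.91 in morphants and 6.14 ± 0.99 in wild types (SD), and the difference of -0.03 had a 95% interval of -0.76 to 0.69 (limma, adjusted p = 0.977). The sign of so small a difference turned with the choice of arrays. Within 2 log2 units of the array's 10th percentile were 7 of 9 morphant and 9 of 14 wild-type values at 14 dpf.

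At 22 dpf igf3 lay between 5.08 and 7.39 with a median of 6.83 in morphants, and between 6.78 and 8.91 with a median of 7.80 in wild types. Of the 14 wild-type arrays, 9 were above every morphant array, while 4 morphant arrays were below every wild-type array and the other 6 lay within its lower part. igf3 averaged 6.58 ± 0.72 in morphants and 7.82 ± 0.76 in wild types (SD), a difference of -1.24 ± 0.35 (SE, 95% interval -1.94 to -0.54). This is a 2.36-fold lower intensity, with an adjusted p of 0.0297 in limma and an unadjusted permutation p of 0.00057. Both tests counted the arrays of near-duplicate pairs as separate samples. The call was lost with the near-duplicate pairs averaged (-1.23, adjusted p = 0.110), and without morphant array 13, 16 or 18 or wild-type array 7 or 10 (adjusted p between 0.0505 and 0.0796). In order of the mean, the groups at 14 dpf (morphant, then wild type) came below morphants at 22 dpf, and wild types at 22 dpf stood above these by more than the SD of either 22 dpf group.

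Anti-Müllerian hormone, amh, is another TGF-β family hormone, which Sertoli and granulosa cells secrete and which in zebrafish limits the build-up of germ cells. At 14 dpf amh lay between 4.57 and 6.04 with a median of 5.19 in morphants, against 4.02 to 7.26 with a median of 5.17 in wild types. At 22 dpf the range was 4.95 to 7.34 with a median of 5.46 in morphants, and 4.10 to 6.77 with a median of 5.33 in wild types. The groups overlapped almost entirely at both ages, and the highest value came from a single morphant array, number 14 at 22 dpf. On 44 of 47 arrays amh lay within 2 log2 units of the array's 10th percentile. Without detection calls it is unknown on which of them its transcript was above background. Differences were 0.03 (95% interval -0.58 to 0.64, adjusted p = 0.972) at 14 dpf and 0.28 (95% interval -0.31 to 0.86, adjusted p = 0.766) at 22 dpf by limma. Without morphant array 14 the difference at 22 dpf was 0.09. The intervals do not show that amh was alike in the groups, since each holds differences larger than 0.5. All 4 group means lay between 5.22 and 5.68 and differed by less than their SD.

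The DM-domain transcription factor dmrt1 is required for testis development in zebrafish and is made in Sertoli cells and germ cells. Among the 6 genes it alone was called lower in morphants at both ages. Its values lay within 2 log2 units of the array's 10th percentile on all 47 arrays. Without detection calls it is unknown on which of them the dmrt1 transcript was above background. At 14 dpf dmrt1 lay between 5.11 and 5.97 with a median of 5.65 in morphants, and between 5.33 and 6.72 with a median of 6.29 in wild types. Of the wild-type arrays, 12 of 14 stood above every morphant array, the exceptions being arrays 22 and 12. dmrt1 averaged 5.61 ± 0.30 in morphants and 6.24 ± 0.36 in wild types (SD), a difference of -0.63 ± 0.16 (SE, 95% interval -0.96 to -0.30, adjusted p = 0.0255 by limma) that corresponds to a 1.55-fold lower intensity. All 9 morphant arrays were below the wild-type median, and the exact permutation test gave an unadjusted p of 0.00037. The call was lost when 14 dpf was fitted alone (adjusted p = 0.0625). In the fit of all 4 groups it was lost with pairs above 0.5 averaged, among them morphant arrays 5 and 13 (-0.61, adjusted p = 0.0577). It was also lost there without morphant array 4 or 13 (-0.57 and -0.58, adjusted p = 0.0546 and 0.0610).

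At 22 dpf dmrt1 lay between 4.74 and 5.67 with a median of 5.17 in morphants, against 5.03 to 6.53 with a median of 5.68 in wild types. Here 4 morphant arrays were below every wild-type array, and 7 wild-type arrays were above every morphant array. The means were 5.17 ± 0.35 in morphants and 5.73 ± 0.41 in wild types (SD), a difference of -0.56 ± 0.16 (SE, 95% interval -0.88 to -0.24, adjusted p = 0.0297 by limma) or 1.47-fold in intensity. All 10 morphant arrays were below the wild-type median, and the permutation test, with near-duplicate arrays counted separately, gave an unadjusted p of 0.00205. This call was lost in 6 of the other fits, among them the one with near-duplicate pairs averaged (-0.56, adjusted p = 0.106), and without morphant array 4, 13, 14 or 16 or wild-type array 6 or 24 (adjusted p between 0.0565 and 0.0757). The size of the difference stayed between -0.62 and -0.50 when any array was left out. The order of the dmrt1 means was morphant at 22 dpf, morphant at 14 dpf, wild type at 22 dpf and wild type at 14 dpf, and the middle groups differed by less than their SD.

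The HMG-box transcription factor sox9a acts in Sertoli cells of the testis and, outside the gonad, in cartilage. Its values lay within 2 log2 units of the array's 10th percentile on 45 of 47 arrays. Without detection calls it is unknown on which of them the sox9a transcript was above background. At 14 dpf sox9a lay between 4.32 and 6.02 with a median of 5.05 in morphants, and between 4.73 and 7.62 with a median of 5.30 in wild types. There were 3 morphant arrays below all wild-type arrays, and 3 wild-type arrays, numbers 8, 17 and 20, above all morphant arrays. The difference of -0.56 ± 0.28 (SE, 95% interval -1.12 to 0.01) did not pass limma's test (adjusted p = 0.304). The exact permutation test gave an unadjusted p of 0.0755.

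At 22 dpf sox9a lay between 4.88 and 7.66 with a median of 5.05 in morphants, and between 4.58 and 5.84 with a median of 4.98 in wild types. A single morphant array, number 17, held the highest value at 7.66, and the other 9 morphant arrays reached at most 5.54. The difference of 0.32 ± 0.27 was not called (limma, adjusted p = 0.679), and without array 17 it was 0.06. At 22 dpf 8 of the 10 morphant arrays exceeded the wild-type median, whereas at 14 dpf 7 of the 9 were under it. The change in effect between the ages, 0.88 ± 0.39, did not pass limma's test (adjusted p = 0.377). All 4 sox9a group means were between 5.01 and 5.57 and differed by less than the larger SD.

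The androgen receptor ar is a nuclear receptor that switches on target genes when bound by androgens such as 11-ketotestosterone, the main androgen of fish. Its probes gave values of 10.08 and above on every array. At 14 dpf ar lay between 10.08 and 11.40 with a median of 10.77 in morphants, and between 11.02 and 12.36 with a median of 11.61 in wild types. Of the 9 morphant arrays, 7 were below every wild-type array, and 9 of the 14 wild-type arrays were above every morphant array. ar averaged 10.75 ± 0.39 in morphants and 11.60 ± 0.43 in wild types (SD), a difference of -0.86 and a 1.81-fold lower intensity. The interval of the difference, -1.22 to -0.50, did not reach 0, and the exact permutation test gave an unadjusted p of 8.69e-05. ar was called lower at 14 dpf under every setting tried and without any of the 47 arrays in turn (-0.94 to -0.77, highest adjusted p 0.0189 in limma).

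At 22 dpf ar did not separate the groups. It lay between 11.19 and 12.46 with a median of 11.77 in morphants, and between 11.32 and 12.29 with a median of 11.83 in wild types. The means were 11.78 ± 0.44 in morphants and 11.81 ± 0.37 in wild types (SD), a difference of -0.02 (95% interval -0.37 to 0.33, adjusted p = 0.978 by limma). Morphants at 14 dpf were the lowest of the 4 groups, apart from the next, wild type at 14 dpf, by more than their SD, whereas the 3 other group means lay between 11.60 and 11.81 and differed by less than their SD.

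The number in the array titles is the only order that the labels give. At 22 dpf ar was lower above number 12 than up to it in morphants and wild types alike. At 14 dpf it was higher above 12 in wild types and slightly lower in morphants, and these shifts were not tested. At 22 dpf, among title numbers up to 12, ar averaged 12.22 in morphants and 11.96 in wild types, and among numbers above 12 it averaged 11.49 in morphants and 11.60 in wild types. All near-duplicate pairs at 22 dpf have numbers up to 12. The 4 morphant arrays there are the pairs 1 and 2, and 3 and 4, and of the 8 wild-type arrays there, numbers 5 to 10 are pairs. Means and signs of that number group may therefore rest on fewer distinct samples than arrays. At 14 dpf the number group up to 12 had 10.82 in morphants and 11.35 in wild types, and the group above 12 had 10.65 in morphants and 11.86 in wild types. Morphants were lower in both number groups at 14 dpf, by 0.53 in arrays up to 12 and by 1.21 in the others. With the number group as a block, the difference at 22 dpf turned to 0.07 and was not called. The differences of dmrt1 (-0.77 and -0.48 at 14 dpf, -0.44 and -0.59 at 22 dpf) and gsdf (-1.49 and -0.68 at 14 dpf, -1.11 and -1.83 at 22 dpf) had the same sign in arrays numbered up to 12 and above it. For igf3 the differences at 22 dpf were -0.98 and -1.44, and at 14 dpf they had opposite signs, 0.37 and -0.46.

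**Figure D2:**
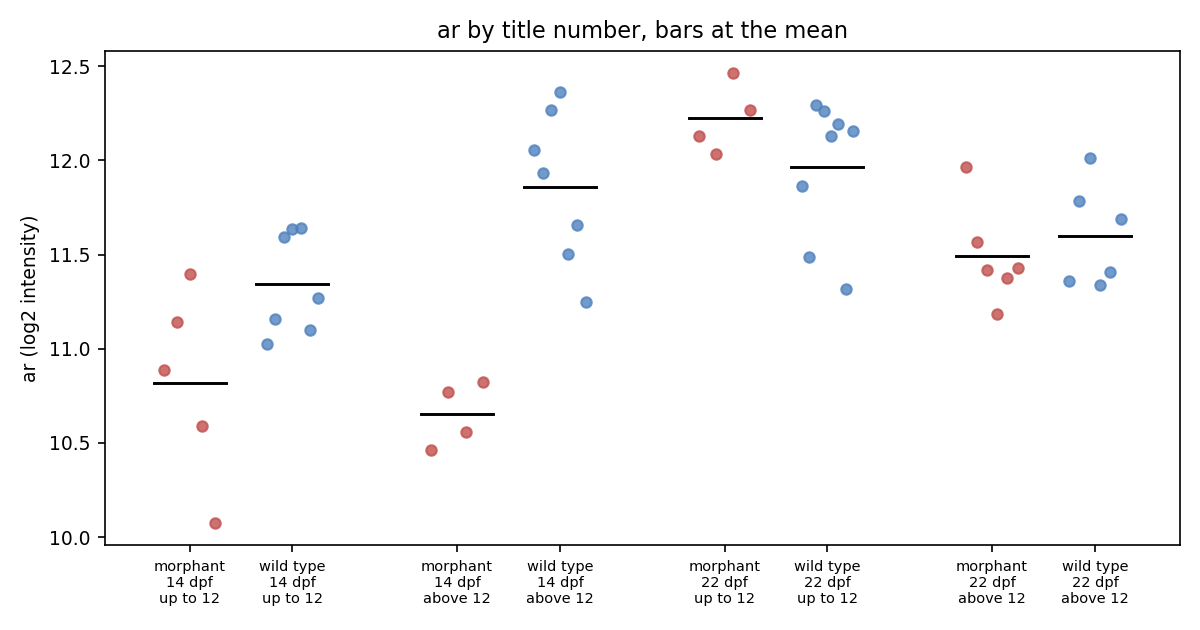
Log2 intensity of ar on every array, split by age and by title number (up to 12 or above 12), with dnd morphants left of wild types in each pair; points are arrays and bars are means. At 14 dpf the morphant bars are lower in both number groups. At 22 dpf morphants and wild types both have higher bars up to 12 (12.22 and 11.96), where all near-duplicate pairs lie, than above 12 (11.49 and 11.60).

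Whether a gene's difference between morphants and wild types itself changed from 14 to 22 dpf was tested in the same limma fit. None of the 6 genes passed at an adjusted p below 0.05, and 0.645% of all rows did. Before adjustment 3 of 6 had a p below 0.05, as did 11.1% of all rows. The largest changes were those of igf3, -1.21 ± 0.50 (SE, adjusted p = 0.328), sox9a, given above, and ar, 0.83 ± 0.25 (SE, adjusted p = 0.112, unadjusted p = 0.00158). The ar change passed in the fit with the title-number group as a block (0.91, adjusted p = 0.0362) and in none of the other fits. So igf3 was called at 22 dpf alone and ar at 14 dpf alone, without a difference between the ages that passed the test in the fit of the 4 groups. For gsdf and dmrt1 the changes were -0.45 ± 0.50 and 0.07 ± 0.23, and for amh 0.24 ± 0.42 (SE).

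**Figure D3:**
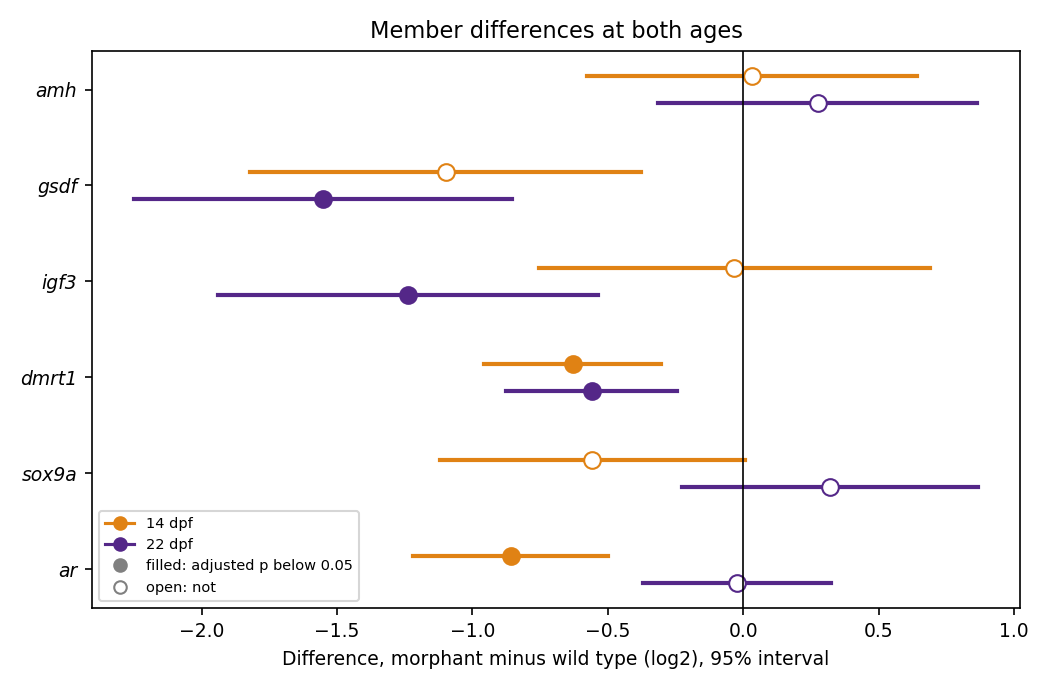
Difference in log2 intensity, dnd morphant minus wild type, for the 6 genes at 14 dpf and 22 dpf, with the 95% interval of the limma fit; filled points passed an adjusted p of 0.05 and open points did not. The 14 and 22 dpf points of dmrt1 lie together near -0.6, those of ar, igf3 and sox9a lie apart (with sox9a at -0.56 and 0.32), and both amh intervals span 0.

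Members were also set against the germ cell and oocyte genes measured on the same arrays, since the arrays of a group differ in their ddx4. Across 156 relations within the 4 groups (member with member, and each member with ddx4, with cyp19a1a and with the means of the germ cell and oocyte lists), none passed after adjustment, and 10 had an unadjusted permutation p below 0.05. The lowest p belonged to gsdf and the germ cell list on the 14 wild-type arrays at 14 dpf (Pearson r = 0.68, Spearman rho = 0.61, permutation p = 0.00628, adjusted p = 0.611). Without the 2 arrays farthest from the median of gsdf, r was 0.45. In 22 dpf morphants with near-duplicate pairs averaged to 8 samples, dmrt1 and ddx4 had r = 0.72 and rho = 0.55 (exact permutation p = 0.0219, adjusted p = 0.611), and without the 2 farthest samples r was -0.04. Those 2 samples, the averaged pair 1 and 2 and array 18, also had the highest ddx4 of the 8. The samples left had ddx4 of only 5.40 to 6.69, so leaving those 2 out cannot tell whether the relation rested on them. For gsdf and ddx4 in the same 8 samples r was 0.67 and rho 0.12 (exact permutation test, adjusted p = 0.646). Without the 2 samples farthest from the median of gsdf r was -0.79, and the averaged pair 1 and 2, with the highest ddx4, was again left out. The title-number groups held at most 8 arrays each, and no relation was computed within them.

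**Figure D4:**
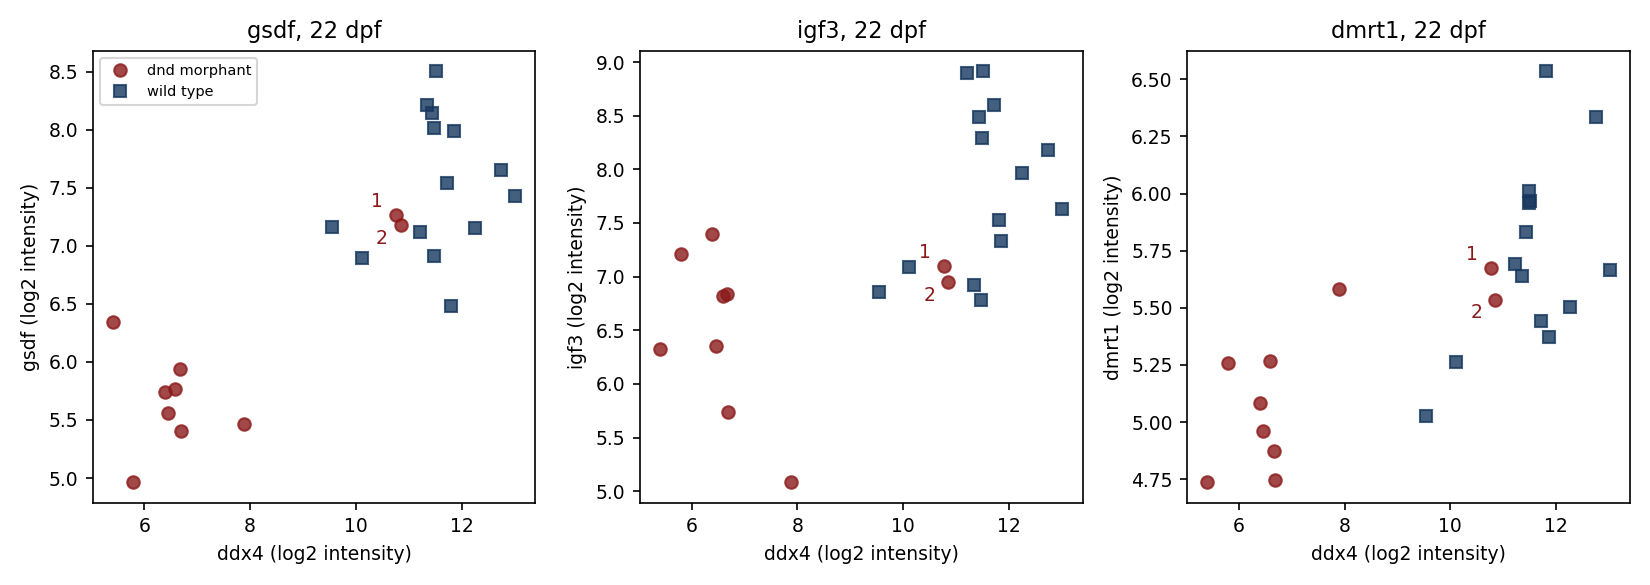
Log2 intensity of gsdf, igf3 and dmrt1 (vertical axes) against ddx4 (horizontal axes) on the 10 morphant and 14 wild-type arrays at 22 dpf. Each point is 1 array, and the digits mark morphant arrays 1 and 2. These arrays have ddx4 of 10.77 and 10.86 and lie beside wild-type arrays in all 3 panels, while the other 8 morphant arrays have lower ddx4 and gsdf of at most 6.34. Arrays 1 and 2 do not stand apart from those for igf3, where arrays 17 (7.39) and 15 (7.21) are higher than both (7.10 and 6.95). For dmrt1, array 18 (5.58) is above array 2 (5.54).

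Genes of the pathways around the 6 were grouped in lists. For comparison, 1.33% of all rows were called lower and 1.15% higher at 14 dpf, and 2.89% lower and 0.591% higher at 22 dpf. An unadjusted p below 0.05 was found for 16.7% of all rows at 14 dpf and 13.9% at 22 dpf. Of 19 measured genes of androgen and steroid synthesis, none was called at 14 dpf (3 had an unadjusted p below 0.05) and 1 was called lower at 22 dpf, with a list median of 0.03 and -0.05 against -0.01 and 0.04 over all rows. The gene was cyp11a1, the enzyme that cuts the side chain of cholesterol at the first step of steroid synthesis, with 5.38 ± 0.38 in morphants and 7.03 ± 1.55 in wild types (SD; difference -1.65 ± 0.44 SE, adjusted p = 0.0211 by limma). The androgen-making enzymes cyp17a1 (-1.01 and -0.62 at 14 and 22 dpf) and cyp11c1 (0.34 and -0.12) were not called. Neither were star, the cholesterol carrier of mitochondria (1.70 at 14 dpf, adjusted p = 0.0908), and nr5a1a, a regulator of steroid enzymes (0.00 and -0.05). The nr5a1a group means, between 5.22 and 5.43, lay near the arrays' 10th percentile (4.74 to 4.81). Without detection calls it is unknown whether its transcript was above background.

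None of the 16 partners of the androgen receptor and related nuclear receptors was called at either age in limma. An unadjusted p below 0.05 was found for 3 at 14 dpf and 5 at 22 dpf, against 16.7% and 13.9% of all rows. The one nearest to the threshold was the chaperone hsp90aa1.1, with 14.66 ± 0.44 in morphants and 15.07 ± 0.20 in wild types at 14 dpf (adjusted p = 0.0553). Among the receptors, esr2a, an oestrogen receptor, differed by -0.86 at 22 dpf (adjusted p = 0.0936), and the mineralocorticoid receptor nr3c2 by 1.12 (adjusted p = 0.188).

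Outside the members, 26 testis somatic and sex determination genes were measured. Of these, 6 at 14 dpf and 5 at 22 dpf had an unadjusted p below 0.05, against 16.7% and 13.9% of all rows. Called lower were 2 at 14 dpf and 1 at 22 dpf, against 1.33% and 2.89% of all rows, and none was called higher. At 14 dpf these were nr0b2a, an orphan nuclear receptor that represses other receptors (6.18 ± 0.93 in morphants and 7.68 ± 0.77 in wild types, adjusted p = 0.0023), and gata6, a GATA transcription factor also of gut and heart (7.26 ± 1.01 in morphants and 8.47 ± 0.84 in wild types, adjusted p = 0.0170). At 22 dpf it was fshr, the receptor for follicle-stimulating hormone of Sertoli and granulosa cells, with 4.81 ± 0.76 in morphants and 6.26 ± 0.83 in wild types (SD; adjusted p = 0.0422). Both fshr means lay within 2 log2 units of the arrays' 10th percentile (4.74 to 4.81), and whether its transcript was above background is unknown. The sox9a paralogue sox9b (-0.22 and -0.06), gata4 (0.02 and -0.15) and wt1a (-0.06 and -0.44) were not called at either age. Neither was the growth factor fgf20a, with differences of 1.00 at 14 dpf (adjusted p = 0.115) and 0.93 at 22 dpf (adjusted p = 0.143). The group means of gata4 and wt1a, between 5.02 and 6.14, also lay within 2 log2 units of the 10th percentile, with the same limit as for fshr.

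Among 18 measured genes of AMH and BMP receptor signalling, 1 was called higher at 14 dpf, against 1.15% of all rows, and none at 22 dpf. An unadjusted p below 0.05 was found for 4 and 2 of them, against 16.7% and 13.9% of all rows. The list median was 0.22 at 14 dpf and 0.16 at 22 dpf, against -0.01 and 0.04 over all rows. That gene was id1, a target of BMP signalling in many tissues, with 13.27 ± 0.26 in morphants and 12.66 ± 0.36 in wild types (SD; adjusted p = 0.0229). The type 2 receptor bmpr2a differed by 0.09 and -0.69 at 14 and 22 dpf and was not called. None of the 17 measured genes of the insulin-like growth factor pathway was called at either age (3 at 14 dpf and 2 at 22 dpf had an unadjusted p below 0.05), with igf1rb, a receptor, at -0.69 (adjusted p = 0.137) at 14 dpf and igf1 at 0.53 (adjusted p = 0.341). For sox9a, 1 of 19 cartilage genes was called higher at 14 dpf, ucmaa (0.40, adjusted p = 0.0363), and none at 22 dpf. An unadjusted p below 0.05 was found for 7 of 19 at 14 dpf, in both directions (col9a1a -0.85, comp 0.69 and runx3 0.57 among them), and for 0 at 22 dpf. The cartilage collagen col2a1a, a sox9a target, had -0.91 at 14 dpf (adjusted p = 0.312) and 0.01 at 22 dpf.

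Some ovarian somatic genes and most germ cell and oocyte genes were also lower in morphants at 22 dpf. Over all rows, 1.33% were called lower and 1.15% higher at 14 dpf, and 2.89% lower and 0.591% higher at 22 dpf. Of 12 ovarian somatic genes, 4 were lower and 8 were not called (list median 0.00, against 0.04 over all rows). The 4 were cyp19a1a, the aromatase that turns androgens into oestrogens (4.93 ± 1.03 in morphants and 7.30 ± 1.13 in wild types), foxl2a, a forkhead factor of the ovary (6.04 ± 0.82 and 8.29 ± 0.95 in morphants and wild types), foxl2b and hsd17b1. At 14 dpf none of these 4 was called, and 1 gene of the list, wnt4, was called higher. Of 14 germ cell genes 10 were lower at 14 dpf and 12 at 22 dpf (median -1.86 and -2.76). Of 14 oocyte genes 1 was lower at 14 dpf and 13 at 22 dpf (median -0.16 and -3.64), and of 13 spermatogenesis genes, several of them meiotic genes that oocytes also use, 1 and 6. Their part in the lower gsdf, igf3 and dmrt1 was not tested.

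**Figure D5:**
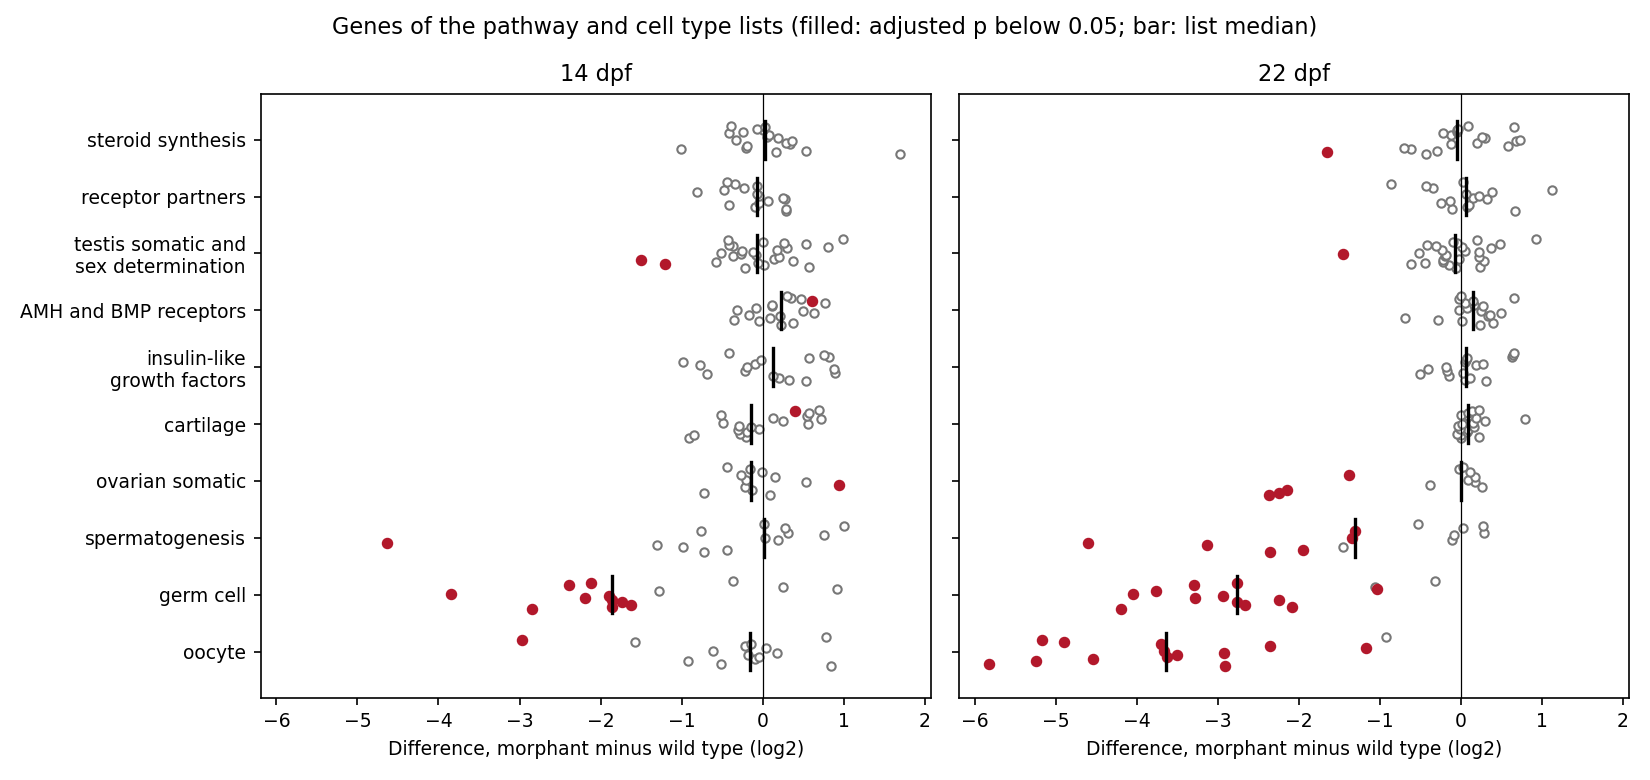
Difference in log2 intensity, dnd morphant minus wild type, for each measured gene of 10 lists at 14 dpf (left) and 22 dpf (right); filled red points passed an adjusted p of 0.05, open points did not, and the black bar is the list median. The medians of the steroid, receptor, AMH and BMP, and insulin-like growth factor lists lie between -0.07 and 0.22 at both ages, while the germ cell medians lie left of 0 at both ages (-1.86 and -2.76, with nanos3 at 0.92 and tdrd12 at 0.25 at 14 dpf) and the oocyte median at 22 dpf (-3.64).

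Named genes whose array-to-array pattern was most like that of a member were ranked by the Pearson correlation of deviations from the group means over all 47 arrays. These correlations are the extremes over all named genes and are given without a test. The highest for ar were pbx4 (0.68), ctcf (0.68) and lrrc8db (0.67), and the lowest was si:dkey-31c13.1 (-0.71). For dmrt1 they were PDK2, bbs1 and tdrd5, between 0.49 and 0.50, of which tdrd5 is a Tudor-domain gene of germ cells and a member of the germ cell list. For sox9a they were lgals9l5 (0.63), kif19 (0.62) and fgd1 (0.61). For gsdf the genes were ttc9b (0.57), zgc:153911 (0.55) and itsn2a (0.54), for igf3 plcxd1.1 (0.58), si:dkey-78a14.4 (0.53) and LOC795147 (0.53), and for amh illr3 (0.56), bckdhbl (0.54) and mast3b (0.53). The lowest were insig1 for gsdf (-0.62), slc9a8 for sox9a (-0.71), esrrb for amh (-0.59), cyb561 for dmrt1 (-0.56) and zgc:113336 for igf3 (-0.54). None of the other 5 members was among the genes named for a member.

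On the 14 wild-type arrays at 22 dpf alone, where 3 near-duplicate pairs are included, the genes nearest to each member were others. They were wnk1b, nicol1 and cxcl12a for ar (0.85 to 0.88), tspan34b, si:dkeyp-123a12.3 and cpne5a for gsdf (0.84 to 0.87), and ddo, kirrel1b and m1ap for igf3 (0.81 to 0.86). For dmrt1 they were ETF1, kbtbd7 and brinp2 (0.84 to 0.88), for sox9a roraa, LOC100330136 and echdc3 (0.83 to 0.89), and for amh KCNH5, arfgef2 and ly75 (0.80 to 0.84).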

How the data were processed

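The values are log2 intensities as deposited, 1 for each row on each array, and RMA is named in the submitters' processing notes without a version. Per the labels' protocols, total RNA was amplified and labelled with Cy3. Arrays have no read depth, so their number limits the precision.

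The 6 genes and all lists were chosen with earlier results of these data known. Row names were matched to current zebrafish symbols through RefSeq tables: 22614 of 31475 rows had 1 gene name. Of several rows for 1 gene, the one with the highest mean was used. Groups came from the labels.

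The fit was limma 3.58.1 (R 4.3.3) on 4 group means over all 47 arrays, with 43 residual degrees of freedom, eBayes, and p-values adjusted across all rows by Benjamini and Hochberg's method. It was tested on simulated data with independent arrays, which held no near-duplicate pairs and no title-number groups. Differences of group means of the 6 genes were also tested with two-sided permutation tests over arrays (numpy 2.4.6). These were exact with 817190 splits at 14 dpf and used 100000 resamples at 22 dpf. Near-duplicate arrays counted separately in them, and they were not repeated with pairs averaged. Near-duplicate pairs were those whose deviations from the group mean correlated, across rows averaging at least 8, above 0.65 (5 of 263 pairs; the sixth, morphant arrays 5 and 13 at 14 dpf, had 0.64).

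Alternatives were a fit of each age alone, centring each array on its median, pairs averaged, the title-number group as a block, a filter on rows with a mean under 6, eBayes with trend and robust settings, and leaving out each array. Pairs above 0.5, and pairs averaged in a fit of each age alone, were added after seeing the data. The alternatives were read out for the 6 genes and for counts over all rows, not for list genes or cell type markers. Leaving out an array of the other age changes the spread shared by the groups and not the difference. Of the lists, the genes named were those with a fixed place and up to 4 with the smallest p at either age. Array titles share no numbers between morphants and wild types of an age.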

Additional observations from a re-analysis of the deposited data

Results flagged for a closer look

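Within each group of 9 or 10 morphant arrays, the highest and lowest value was set against the rest with Dixon's test for a single extreme value, which flags about 1 in 20 groups by chance. The wild-type groups, with 14 arrays, were not tested. For the 6 genes, 1 value stood out: sox9a on morphant array 17 at 22 dpf, at 7.66, with a gap to the next array of 0.762 of the group's range. On the same array cyp19a1a was at 7.05, the highest of the morphant arrays at 22 dpf, and ddx4 was at 6.40. Another 2 values, of genes set beside the members, also stood out at 14 dpf: ddx4 (vasa) on morphant array 3, at 10.92 (gap 0.600 of the range), and cyp19a1a on morphant array 2, at 8.43 (gap 0.744 of the range). The highest amh value of a morphant, 7.34 on array 14 at 22 dpf, did not pass this test.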

How the results depend on the processing

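For the 6 genes the calls of gsdf at 22 dpf and of ar at 14 dpf held under every alternative run. Those of dmrt1 and igf3 lay near the threshold. dmrt1 at 14 dpf was not called with that age fitted alone, with or without pairs averaged (-0.629, adjusted p = 0.0625), or with pairs above 0.5 averaged (-0.605, 0.0577), and leaving out single arrays gave -0.699 to -0.567. dmrt1 at 22 dpf was not called with near-duplicate pairs averaged (-0.557 in each of the 3 fits that did so, adjusted p = 0.106, 0.106 and 0.187), with the title-number group as a block (-0.522, 0.0531), with trend and robust eBayes (-0.560, 0.0522) or with that age alone (-0.560, 0.0619), and single arrays left out gave -0.616 to -0.498. igf3 at 22 dpf was not called in the 3 fits with pairs averaged (-1.23, adjusted p = 0.110, 0.108 and 0.0571), and single arrays left out gave -1.33 to -1.07. The planned fit of 4 groups with pairs averaged has 38 residual degrees of freedom in place of 43. gsdf at 14 dpf (-1.10) had an unadjusted p of 0.0202 by permutation and 0.00352 by limma, and an adjusted limma p of 0.0838. Single arrays left out gave -1.23 to -0.93. The change of the ar difference between the ages passed with the title-number block (0.909). The sign turned in differences that were never called: igf3 at 14 dpf with arrays centred (0.0161) and with single arrays left out (-0.19 to 0.173), amh at 14 dpf with single arrays left out (-0.0646 to 0.189), and ar at 22 dpf with arrays centred (0.0154), with the block (0.0652) and with single arrays left out (-0.0989 to 0.0431). The cause of these changes was not tested. The filter on rows with a mean of at least 6 removes amh, dmrt1 and sox9a, so it gave no value for them.

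Over all rows, 780 were called at 14 dpf and 1097 at 22 dpf. With 14 dpf fitted alone 195 were called, and with pairs above 0.5 averaged 400. At 22 dpf 669 were called with pairs averaged, 667 with pairs above 0.5 averaged, and 617 with pairs averaged and that age alone. The difference changed between ages in 203 rows, and separate fits with pairs averaged called 102 by the planned and 66 by the added limit. Leaving out single arrays moved these counts by over 1.5 times in some cases: 498 and 509 rows were called at 14 dpf without morphant array 13 or 1. Between ages the count was 123, 129 and 135 without morphant array 3, 4 or 13 of 22 dpf, and 340 and 313 without wild-type array 11 or 23 of 22 dpf. With arrays centred, 60.0% of the 14 dpf calls were higher in morphants. No paired analysis was possible because morphant and wild-type arrays of an age share no title number. On 44 of 47 arrays amh, on 45 sox9a, on 47 dmrt1, on 24 gsdf and on 21 igf3 were within 2 log2 units of the array's 10th percentile, and without detection calls it is unknown on which arrays these transcripts were above background.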
